A study of Homo sapiens with 10 samples.

Results

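The long noncoding RNAs MALAT1, NEAT1, TUG1, NORAD and OIP5-AS1 were followed in the established ovarian cancer (OC) cell line HeyA8 after transfection of small interfering RNAs (siRNAs). They were chosen by symbol as 5 well-studied long noncoding RNAs of 58395 genes in the count files, and each symbol was matched to its Ensembl identifier. All 5 passed the filter on low counts, as did 16905 genes in all. The 10 libraries form 5 groups of 2, each transfected at 10 nM. siNT1, the non-targeting control that the labels mark as S2'OM, and siGGGGGC, named siMxy in the titles, were harvested after 24 and 48 h, and siGGCAGU, named si34a, after 48 h alone. All groups therefore share the parental line, the dose and the exposure to a transfected duplex, and untransfected cells were not analysed here. The duplicates were wells of the same cell line, so p-values measure only the spread between wells and libraries. The names siGGGGGC and siGGCAGU spell the 6mer seed, guide positions 2 to 7. Total RNA was depleted of ribosomal RNA and not selected for poly(A) tails, and the labels state that the RNA above a length limit was sequenced.

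Long noncoding RNAs are transcripts that work without being translated into a known protein, and the best known are among the most abundant RNAs of human cells. MALAT1 lies in nuclear speckles, bodies that hold splicing factors, and NEAT1 is the scaffold of paraspeckles, nuclear bodies built around its long isoform. NORAD is a mainly cytoplasmic RNA that binds Pumilio proteins such as PUM2, repressors of many messenger RNAs. OIP5-AS1, also called Cyrano, carries a site of extended pairing to the microRNA miR-7 and directs the decay of that microRNA. TUG1 has been reported to bind the chromatin repressor PRC2 and is found in the nucleus and the cytoplasm.

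On hg38, MALAT1 (ENSG00000251562) is on chromosome 11 from 65497640 to 65508073 on the plus strand, and NEAT1 (ENSG00000245532) lies before it on the same strand from 65422774 to 65445540. TUG1 (ENSG00000253352) is on chromosome 22 from 30969245 to 30979395 on the plus strand, and GENCODE release 44 gives it the biotype protein_coding. NORAD (ENSG00000260032) is on chromosome 20 from 36045618 to 36051018 on the minus strand. OIP5-AS1 (ENSG00000247556) is on chromosome 15 from 41283958 to 41322392 on the plus strand. The exons of all their annotated transcripts, merged, cover 10434 bases in MALAT1, 22767 in NEAT1, 10151 in TUG1, 5401 in NORAD and 22370 in OIP5-AS1. The first 4 are a single merged exon, and OIP5-AS1 has 16.

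A seed match is the reverse complement of a seed, the word with which a guide pairs to an RNA as a microRNA does. For siGGGGGC the word is GCCCCC. For siGGCAGU it is ACTGCC. The control siNT1 has CGACTA as its word. Words were searched on the transcribed strand of the merged exons. siGGCAGU shares its seed with miR-34a-5p and siGGGGGC with miR-1237-5p. Their mature sequences from RefSeq (GRCh38.p14) are shown with positions 2 to 8 in capitals, together with miR-7-5p for its pairing to OIP5-AS1.
hsa-miR-34a-5p: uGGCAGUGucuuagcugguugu
hsa-miR-1237-5p: cGGGGGCGgggccgaagcgcg
hsa-miR-7-5p: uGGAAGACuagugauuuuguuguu

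NEAT1 held 8 GCCCCC and 12 ACTGCC words, more than any other of the 5 RNAs. Among 329 genes tested with merged exons within 20% of its length, the median was 3 GCCCCC and 5 ACTGCC, 91.2% and 98.2% had at least 1, and 20.1% and 3.95% held as many as NEAT1. At a pair of places in NEAT1 both words overlap in 1 stretch. They are shown because a guide of either siRNA has its seed match there, with the shared stretch read as ACTGCC followed by 3 C.
NEAT1 chr11:65437741-65437770, + strand, ACTGCC in capitals: ctagttgtcctcACTGCCccctagccgacc
NEAT1 chr11:65443949-65443978, + strand, ACTGCC in capitals: gagtgtgttttgACTGCCcccatttctgag

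TUG1 and NORAD held no GCCCCC, a word that 81.5% of 2103 genes of TUG1's length and 73.8% of 3327 genes of NORAD's length contain. TUG1 held 3 ACTGCC against a median of 2 in genes of its length, and NORAD held 1, near its 5′ end, against a median of 1. MALAT1 held 2 of each word in its merged exons, and the median of 2049 genes of its length was 2 for both. Of those genes, 82.3% held GCCCCC and 90.4% held ACTGCC. The second ACTGCC of MALAT1, at 65506367, lies past the small RNA from 65506117 to 65506173. MALAT1 is known to be cut before that small RNA, as described below, so the cut RNA would lack this word. OIP5-AS1 held 6 GCCCCC and 3 ACTGCC in its merged exons but 2 and 1 in its longest transcript, and the medians of 341 genes of its length were 3 and 5. GCCCCC was found in 90.9% of those 341 genes and ACTGCC in 97.9%. CGACTA, the seed match of siNT1, occurred in 0 of the 5 RNAs, in 15.6% to 41.6% of the genes of their lengths and in 14.5% of all genes searched. The seed matches of NORAD and TUG1 to siGGCAGU are shown because both RNAs passed the test with that siRNA, in opposite directions.
NORAD chr20:36050954-36050983, - strand, ACTGCC in capitals: ccagcgcagagaACTGCCaagtcagttccg
TUG1 chr22:30971874-30971903, + strand, ACTGCC in capitals: tcatctgtcaaaACTGCCattttctcagta
TUG1 chr22:30975396-30975425, + strand, ACTGCC in capitals: agtttgaaaaccACTGCCccagacagcaat
TUG1 chr22:30977049-30977078, + strand, ACTGCC in capitals: acattgatctatACTGCCattccctctaat

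**Figure D1:**
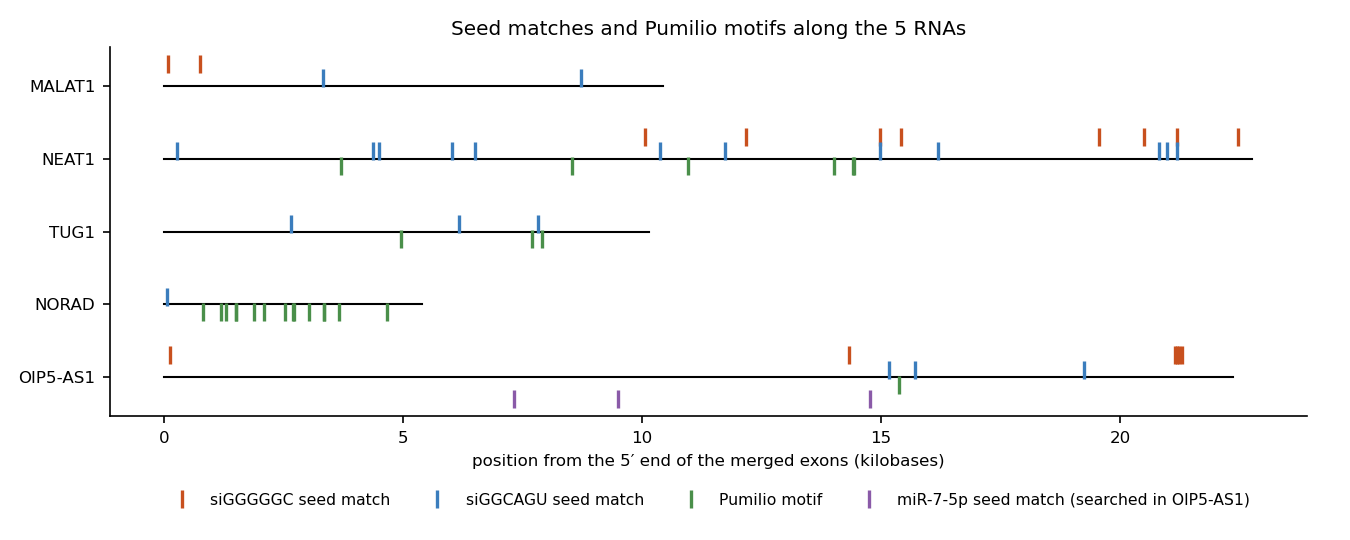
Positions of seed matches and Pumilio motifs along the merged exons of the 5 RNAs, in kilobases from the 5′ end, with 1 tick a match and 1 colour a word; miR-7-5p was searched in OIP5-AS1 alone. NEAT1 has the most matches to both siRNAs, NORAD is crowded with its 15 Pumilio motifs, and TUG1 and NORAD have no tick for siGGGGGC.

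The same exons carried the features for which these RNAs are known. The Pumilio motif TGTANATA occurred 15 times in NORAD, or 2.78 per kilobase, against 0.125 per kilobase over all 16807 genes searched. Of the 3327 genes of NORAD's length, 39% held at least 1 motif and 0% held as many. NEAT1 held 6, TUG1 3, OIP5-AS1 1 and MALAT1 0. Some NORAD motifs come in close pairs, as in this stretch, in which the first of them is in capitals and the other begins after 1 further base.
NORAD chr20:36049502-36049531, - strand, TGTANATA in capitals: tttacttatctgTGTATATAgtgtacataa

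OIP5-AS1 held 3 matches to positions 2 to 8 of miR-7-5p. In the second, a run of 14 further bases before the seed match is the exact reverse complement of the 3′ part of miR-7-5p, while the longest such runs at the other sites are 5 and 3 bases.
OIP5-AS1 chr15:41300570-41300599, + strand, seed match in capitals: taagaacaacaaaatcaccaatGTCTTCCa

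MALAT1 and the long isoform of NEAT1 are known to end not in a poly(A) tail but at a cut made by RNase P before a tRNA-like small RNA, and an A-rich tract at the new end folds into a triple helix that protects the RNA. The last 30 bases before the annotated small RNA are shown because they are the feature that both RNAs share. The longest run of A, in capitals, is 13 in MALAT1 and 5 in NEAT1.
MALAT1 chr11:65506087-65506116, + strand: ttttctagcttAAAAAAAAAAAAAgcaaaa
NEAT1 chr11:65445511-65445540, + strand: ctgtgaaagagtgagcaggAAAAAgcaaaa

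The libraries held 19781445 to 42428986 counts. Between 19.8% and 32.0% of a library fell on the small RNA genes RN7SL2 and SNORD3A, and the 5 long noncoding RNAs took 0.157% to 0.758%. EIF5A, a gene that the study names as a target of siGGGGGC, had 772.5 to 1359.9 normalised counts in the 4 siGGGGGC libraries. With siNT1 it had 5415 and 5521 at 24 h and 8982 and 8753 at 48 h. The siGGCAGU libraries, at 3916 and 5860, were also below siNT1 at 48 h. The keratins KRT8 and KRT18 (1986 to 10351 normalised counts) and the mesenchymal genes VIM and CDH2 (1441 to 39331) were present in all libraries. The epithelial markers EPCAM, KRT19, CDH1 and MUC16 did not exceed 45.3. On the same list of epithelial and ovarian carcinoma markers, PAX8 had 87.0 to 909 and WT1 had 36.2 to 109. Markers of leukocytes, endothelium and liver (PTPRC, PECAM1 and ALB) stayed between 0 and 19.1, and PECAM1 alone of these 3 had enough counts to be tested. It was lower with siGGGGGC at 24 h (-2.60, adjusted p = 0.0285), at -1.88 at 48 h (adjusted p = 0.209) and higher with siGGCAGU (2.18, adjusted p = 0.00786, edgeR). With siGGGGGC at 48 h, 0 of 6 tested epithelial markers were higher and 4 lower, beside 27.8% and 27.5% of all genes. In the same comparison 3 of 3 mesenchymal markers were lower, among them FN1 (-3.72, adjusted p = 1.52e-11, edgeR). For siGGCAGU, 2 and 2 epithelial markers and 1 and 1 mesenchymal markers passed, beside 27.8% and 24.9% of all genes. The part of these shifts in the results below was not tested.

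The 5 RNAs differed widely in level. To compare genes, levels were taken as CPM, counts scaled to a common library size, per kilobase of merged exon. They were 89.9 ± 2.92 (SD, n = 2) for MALAT1 and 81.8 ± 3.28 for NORAD with siNT1 at 24 h. On the same scale NEAT1 was at 7.55 ± 0.234, OIP5-AS1 at 4.88 ± 0.145 and TUG1 at 1.51 ± 0.0919. On the longest transcript in place of merged exons, OIP5-AS1 was at 12.3 and stood above NEAT1. With siNT1 at 48 h, MALAT1 was at 382 ± 167 per kilobase and NORAD at 91.1 ± 4.13. With siGGGGGC at 48 h NEAT1 reached 39.9 ± 0.771, on merged exons below MALAT1 at 322 ± 29.9 and NORAD at 80.9 ± 2.08. The merged exons of MALAT1 run past the cut at its 3′ end, and on the bases before the cut its level per kilobase could be higher. The NEAT1 counts were divided by 22767 bases of merged exons, and its longest transcript is nearly as long. Reads from a shorter isoform would give a higher level per kilobase, and the gene counts cannot tell the isoforms apart. The place of NEAT1 in this order is therefore not settled.

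**Figure D2:**
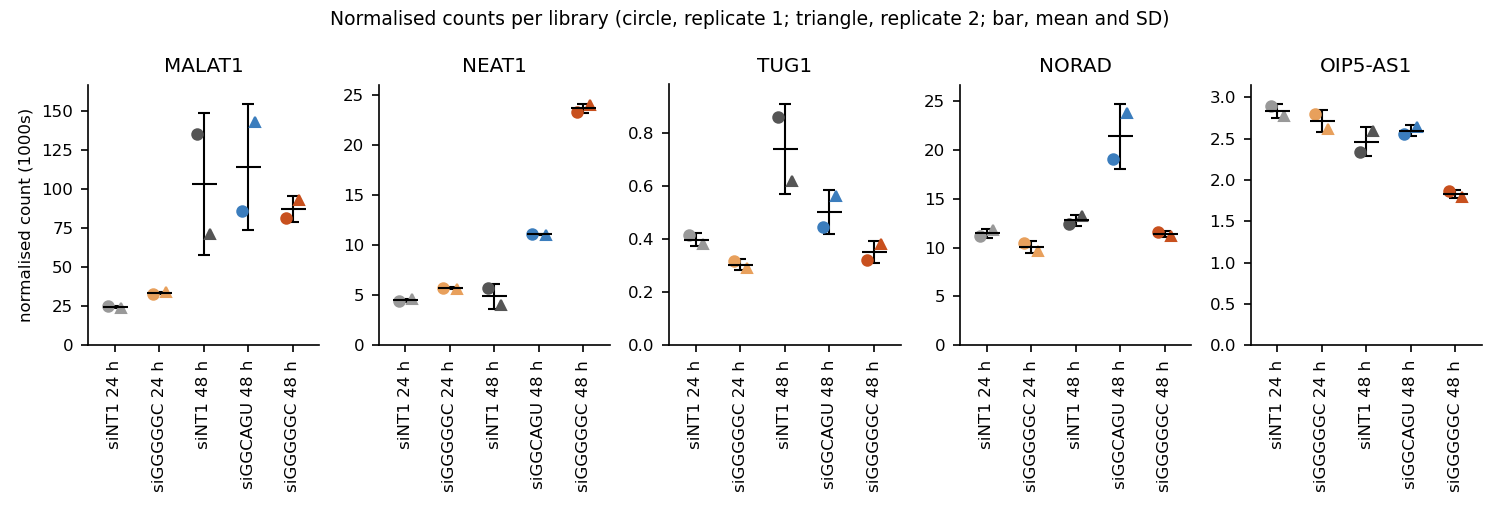
Normalised counts of the 5 RNAs in each of the 10 libraries, on linear axes in units of 1000 that start at 0, with circles for replicate 1, triangles for replicate 2 and bars for the mean and SD (n = 2). NEAT1 steps up from siNT1 to siGGCAGU to siGGGGGC at 48 h, NORAD is highest with siGGCAGU, and MALAT1 replicates lie far apart with siNT1 and siGGCAGU at 48 h.

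NEAT1 rose with both siRNAs at 48 h, and more with siGGGGGC. Its normalised counts at 48 h were 5733 and 3995 with siNT1, 11046 and 11042 with siGGCAGU, and 23301 and 23945 with siGGGGGC. No library of one of these groups overlapped with another, and the siGGCAGU replicates were nearly equal while the siNT1 replicates were not. Against siNT1 the log2 fold change was 2.28 ± 0.131 (SE) for siGGGGGC, a 4.86-fold rise (adjusted p = 1.88e-09). Here and below, p-values come from the quasi-likelihood test of edgeR and are adjusted over all genes tested. For siGGCAGU it was 1.18 ± 0.127 (SE), a fold of 2.27 (adjusted p = 1.28e-06, edgeR). Compared directly at 48 h, NEAT1 was 2.14-fold higher with siGGGGGC than with siGGCAGU, a log2 fold change of 1.10 ± 0.126 (SE, adjusted p = 2.54e-06, edgeR). In bulk RNA, a change of RNA in every cell and a change in a share of the cells cannot be told apart. The gene counts also cannot tell the short from the long NEAT1 isoform.

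At 24 h NEAT1 had 4369.9 and 4566 normalised counts with siNT1 and 5737 and 5615 with siGGGGGC. Both siGGGGGC libraries were above both siNT1 libraries, but the log2 fold change of 0.35 ± 0.127 (SE) missed the threshold (adjusted p = 0.0703, edgeR). The call depended on which libraries set the spread. It was past the threshold when either siNT1 library at 48 h was left out (adjusted p = 0.0035 without replicate 1 and 0.00346 without replicate 2, edgeR), when either siGGCAGU library was left out (0.0413 and 0.0416), and when the 4 libraries at 24 h were fitted alone (0.000157). The siGGGGGC effect on NEAT1 was larger at 48 h than at 24 h, with an interaction of 1.94 on the log2 scale and a standard error of 0.179 (adjusted p = 2.18e-06, edgeR). In siNT1 libraries the log2 fold change of NEAT1 from 24 to 48 h was 0.12 (adjusted p = 0.542, edgeR), with a value of -0.15 without siNT1 48 h replicate 1 and of 0.37 without replicate 2, which passed the test (adjusted p = 0.00991).

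TUG1 fell with both siRNAs at 48 h. Its normalised counts were 861 and 620 with siNT1, 445 and 562 with siGGCAGU, and 323 and 381 with siGGGGGC. The 3 groups did not overlap, although the lower siNT1 and the higher siGGCAGU library were close. With siGGGGGC the log2 fold change was -1.07 ± 0.153 (SE), a 2.1-fold lower level (adjusted p = 2.6e-05, edgeR). With siGGCAGU it was -0.54 ± 0.148 (SE, adjusted p = 0.00598, edgeR), and it missed the threshold without siNT1 48 h replicate 1 (-0.30, adjusted p = 0.0972) and narrowly missed it without siGGCAGU replicate 1 (-0.39, adjusted p = 0.05 after rounding). Directly compared, TUG1 was lower with siGGGGGC than with siGGCAGU by a log2 fold change of -0.53 ± 0.157 (SE, adjusted p = 0.0101, edgeR), which missed the threshold without siGGCAGU replicate 2 (-0.34, adjusted p = 0.124) or siGGGGGC 48 h replicate 1 (-0.42, adjusted p = 0.104).

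At 24 h TUG1 had 415 and 381 normalised counts with siNT1 and 319 and 290.3 with siGGGGGC, groups that did not overlap. The log2 fold change of -0.39 ± 0.168 (SE) did not pass the test (adjusted p = 0.127, edgeR), although it did when the libraries at 24 h were fitted alone (-0.41, adjusted p = 0.00828). In siNT1 libraries TUG1 was 1.85-fold higher at 48 h than at 24 h, a log2 fold change of 0.89 ± 0.153 (SE, adjusted p = 0.00211, edgeR). The mean of the siGGGGGC libraries at 48 h, 352 ± 41 (SD, n = 2), lay between the means of siNT1 at 24 h (398 ± 24.2) and of siGGGGGC at 24 h (305 ± 20.3), and the higher of these libraries was level with the lower siNT1 library at 24 h. The interaction for TUG1 was -0.68 ± 0.227 (SE, adjusted p = 0.0355, edgeR). It missed the threshold in 6 of the 10 fits that left out 1 library, namely without either siNT1 24 h library, either siGGGGGC 24 h library, siNT1 48 h replicate 1 or siGGGGGC 48 h replicate 1, with adjusted p-values from 0.0553 to 0.13 and values from -0.76 to -0.45.

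NORAD rose with siGGCAGU, and its change with siGGGGGC did not pass the test. At 48 h its normalised counts were 12370 and 13190 with siNT1, 19044 and 23741 with siGGCAGU, and 11560 and 11146 with siGGGGGC. Both siGGCAGU libraries were above all other 8 libraries. The log2 fold change with siGGCAGU was 0.74 ± 0.106 (SE), a fold of 1.67 (adjusted p = 2.58e-05, edgeR), and it stayed between 0.57 and 0.89 when any 1 library was left out. With siGGGGGC it was -0.17 ± 0.106 (SE, adjusted p = 0.185, edgeR), and NORAD was 1.88-fold lower with siGGGGGC than with siGGCAGU, a log2 fold change of -0.91 ± 0.107 (SE, adjusted p = 2.98e-06, edgeR). At 24 h NORAD had 11147 and 11798 normalised counts with siNT1 and 10499 and 9652 with siGGGGGC. The log2 fold change of -0.19 did not pass the test (adjusted p = 0.249, edgeR) and did when the libraries at 24 h were fitted alone (-0.20, adjusted p = 0.00971). The interaction was 0.016 ± 0.150 (SE, adjusted p = 0.951, edgeR), and its sign changed with the processing.

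OIP5-AS1 fell with siGGGGGC at 48 h and did not pass the test with siGGGGGC at 24 h or with siGGCAGU. Its normalised counts at 48 h were 2341 and 2588 with siNT1, 2552 and 2641 with siGGCAGU, and 1862 and 1794 with siGGGGGC. Both siGGGGGC libraries were below all other 8 libraries, and siGGCAGU overlapped with siNT1. The log2 fold change was -0.43 ± 0.0857 (SE), a 1.35-fold lower level (adjusted p = 0.000532, edgeR). Against siGGCAGU it was -0.51 ± 0.0862 (SE, adjusted p = 0.00013, edgeR). With siGGCAGU against siNT1 it was 0.075 ± 0.0849 (SE, adjusted p = 0.484, edgeR), a sign that changed with the scaling. At 24 h the siNT1 libraries were at 2896 and 2777 and the siGGGGGC libraries at 2802 and 2618, which overlapped, with a log2 fold change of -0.066 (adjusted p = 0.654, edgeR). The interaction was -0.37 ± 0.121 (SE, adjusted p = 0.0343, edgeR). It missed the threshold in 7 of the 10 fits that left out 1 library, all but those without siNT1 48 h replicate 1 or either siGGCAGU library, with adjusted p-values from 0.0516 to 0.134. In siNT1 libraries the log2 fold change from 24 to 48 h was -0.20 (adjusted p = 0.116, edgeR).

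MALAT1 was higher in all 6 libraries at 48 h than in all 4 at 24 h, and no siRNA effect passed the test. Its normalised counts at 24 h were 24939 and 23820 with siNT1 and 32889 and 34151 with siGGGGGC. At 48 h they were 135520 and 71354 with siNT1, 85974 and 143050 with siGGCAGU, and 81600 and 93074 with siGGGGGC. The 3 groups at 48 h overlapped. In siNT1 libraries the log2 fold change of 48 h over 24 h was 2.08 ± 0.246 (SE), a fold of 4.24 (adjusted p = 0.000154, edgeR), and leaving out 1 library moved it between 1.56 and 2.48. At 48 h the log2 fold change was -0.24 for siGGGGGC (adjusted p = 0.401, edgeR) and 0.15 for siGGCAGU (adjusted p = 0.632, edgeR), with an SE of 0.236 for each. At 24 h it was 0.46 ± 0.237 (SE, adjusted p = 0.202, edgeR), where both siGGGGGC libraries were above both siNT1 libraries, and it passed the test without either siNT1 48 h library (adjusted p = 0.0463 in both cases) or when the libraries at 24 h were fitted alone (5.89e-06).

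The duplicates of MALAT1 at 48 h decided the sign of its effects. They differed 1.9-fold with siNT1, a log2 difference of 0.925 that 0.169% of 8292 well-counted genes reached in the same pair, and by a log2 difference of 0.735 with siGGCAGU, which 1.72% reached. Without siNT1 48 h replicate 1, siGGGGGC was at 0.28 (adjusted p = 0.246) and siGGCAGU at 0.68 (adjusted p = 0.0104, edgeR). Without replicate 2 they were at -0.64 (adjusted p = 0.00995) and -0.25 (adjusted p = 0.307, edgeR). For siGGCAGU the log2 fold change was also negative, at -0.27, without siGGCAGU replicate 2 (adjusted p = 0.357, edgeR). The direct comparison of siGGGGGC with siGGCAGU gave -0.39 (adjusted p = 0.178, edgeR). It was 0.017 without siGGCAGU replicate 2 (adjusted p = 0.959) and passed the test without siGGCAGU replicate 1 (-0.71, adjusted p = 0.0113) or without siNT1 48 h replicate 1 or 2 (-0.39 both times, adjusted p = 0.0427 and 0.0432, edgeR). The interaction of -0.70 (adjusted p = 0.131, edgeR) passed without siNT1 48 h replicate 2 (-1.11, adjusted p = 0.00309) or either siGGCAGU library (-0.72 both times, adjusted p = 0.0433 and 0.0421) and was -0.18 without siNT1 48 h replicate 1.

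The library with more MALAT1 in each of these pairs had the smaller share of RN7SL2 and SNORD3A. That share was 19.8% in siNT1 48 h replicate 1 and 23.9% in replicate 2, and 32.0% in siGGCAGU replicate 1 and 24.2% in replicate 2. The share of counts on all long noncoding RNAs moved the other way, with 1.54% and 1.18% for siNT1 and 1.12% and 1.56% for siGGCAGU. That share includes MALAT1 and so is not a separate feature. MALAT1 alone took 0.624% and 0.294% of counts with siNT1 and 0.31% and 0.599% with siGGCAGU. NEAT1 and TUG1 were also higher in siNT1 48 h replicate 1, by log2 differences of 0.521 and 0.473, which 3% and 3.92% of genes reached, while NORAD and OIP5-AS1 were higher in replicate 2, by 0.0925 and 0.144. In siGGCAGU replicate 2, the library of that pair with more MALAT1, TUG1, NORAD and OIP5-AS1 were higher by 0.338, 0.318 and 0.0499, while NEAT1 differed by 0.000503. The part of these library features in the results was not tested.

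**Figure D3:**
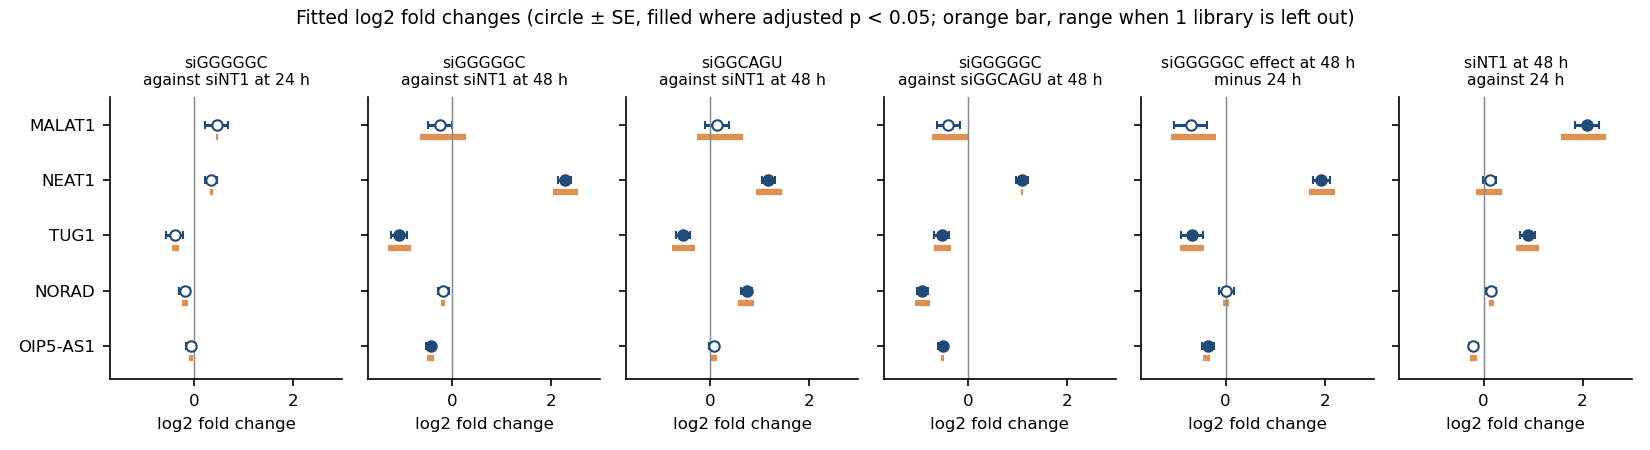
Log2 fold changes of the 5 RNAs in the 6 comparisons, as circles with the standard error, filled where the adjusted p was below 0.05, above an orange bar for the range of values when each library in turn is left out. NEAT1 stands at 2.28 and 1.18 at 48 h clear of 0, whereas the bars of MALAT1 cross 0 in the 3 comparisons between siRNAs at 48 h.

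Counts of calls were read against all genes tested. With siGGGGGC at 24 h, 0 of the 5 passed, beside 10.6% of all genes tested that passed as higher and 8.32% as lower. The unadjusted p was below 0.05 for NEAT1 (0.0154) and TUG1 (0.0362), and the other tools gave 0 calls as well. With siGGGGGC at 48 h, 1 of 5 was higher and 2 were lower, beside 27.8% and 27.5% of all genes. With siGGCAGU at 48 h, 2 were higher and 1 was lower, beside 27.8% and 24.9%. Between siGGGGGC and siGGCAGU, 1 was higher and 3 were lower, beside 26.7% and 27.6%. For the interaction the counts were 1 and 2, beside 13.4% and 15.2%, and for siNT1 over time 2 and 0, beside 9.37% and 7.2%. With the added condition of a log2 fold change beyond 1, the calls were NEAT1 and TUG1 with siGGGGGC at 48 h (21.5% of all genes), NEAT1 with siGGCAGU (20.3%), NEAT1 between both siRNAs (23%), NEAT1 for the interaction (11.2%) and MALAT1 for siNT1 over time (1.53%), and none with siGGGGGC at 24 h (3.72%). With 5 RNAs, a count of 1 to 4 beside such shares is a description of these genes and sets them apart from no other genes.

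Set beside their seed matches, the RNAs moved as follows. NEAT1, with 8 GCCCCC and 12 ACTGCC words in its merged exons, was higher with both siRNAs at 48 h. Its GCCCCC words lie from base 10061 of these exons on, and its ACTGCC words at base 274 and from base 4374 on. A shorter isoform can lack many of them, and the gene counts cannot tell the isoforms apart. TUG1, with no GCCCCC and 3 ACTGCC, was lower with both. OIP5-AS1, with 6 GCCCCC and 3 ACTGCC in its merged exons, was lower with siGGGGGC and did not pass with siGGCAGU. NORAD, with no GCCCCC and 1 ACTGCC, did not pass with siGGGGGC and was higher with siGGCAGU. MALAT1, with 2 of each word in its merged exons and the second ACTGCC past its 3′ cut, passed with neither. With 5 RNAs no test of this relation was made.

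Across the 10 libraries the RNAs did not share 1 pattern. The correlation of log2 levels, given as a description over 10 libraries that share treatments and depth, was lowest by Pearson's r between NEAT1 and OIP5-AS1 (r = -0.852, Spearman rho = -0.624) and lowest by rho between MALAT1 and OIP5-AS1 (r = -0.537, rho = -0.648). The highest was between MALAT1 and TUG1 by r (r = 0.612, rho = 0.552) and between TUG1 and NORAD by rho (r = 0.458, rho = 0.794). Among 3502 genes with a mean of at least 1000 normalised counts, the pattern most like NEAT1 by Pearson correlation was that of NFE2L2 (r = 0.987), a transcription factor of the oxidative stress response, followed by GPATCH2L (0.986) and SECISBP2L (0.983). For MALAT1 they were IGF2R (r = 0.98), the receptor that carries IGF2 and mannose 6-phosphate ligands to lysosomes, UBXN7 and RASA1, and for TUG1 they were ANKRD17 (r = 0.969), IQGAP1 and MPZL1. For NORAD they were QKI (r = 0.979), an RNA-binding protein, GOPC and STC2, and for OIP5-AS1 they were MRPL36 (r = 0.984), a protein of the mitochondrial ribosome, ANAPC7 and UROD. By Spearman correlation 1 of the 3 genes was the same for MALAT1 and for TUG1, and 0 for the other RNAs.

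The proteins with which these RNAs are known to work were read next, from fixed lists. The lists were chosen with earlier results of these data known, so their counts are a description. Of 10 paraspeckle proteins, which assemble on NEAT1, 0 were higher and 5 lower with siGGGGGC at 48 h, beside 27.8% and 27.5% of all genes. With siGGCAGU 0 were higher and 8 lower, beside 27.8% and 24.9%. The medians were -0.211 and -0.50 against -0.0114 and 0.0244 over all genes. With siGGGGGC at 48 h the largest changes were in HNRNPH3 (-1.08, adjusted p = 8.66e-05) and DAZAP1 (-0.79, adjusted p = 2.92e-06, edgeR), both RNA-binding proteins. With siGGCAGU, HNRNPH3 was at -1.25 (adjusted p = 2.17e-05, edgeR). NONO, a core protein of paraspeckles, was lower with both siRNAs (-0.76 and -0.43), and its partner SFPQ was at -0.11 with siGGGGGC (adjusted p = 0.31) and lower by -0.57 with siGGCAGU (adjusted p = 5.56e-05, edgeR). NONO and SFPQ were chosen after their values were seen. NEAT1 itself rose in both comparisons. With siGGGGGC at 24 h, 2 of the 10 were higher and 1 was lower, beside 10.6% and 8.32% of all genes. RBM14 (0.61, adjusted p = 0.000876) and PSPC1 (0.42, adjusted p = 0.00538, edgeR) were the 2 higher ones.

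Of 11 tested genes for the cut and protection of the MALAT1 and NEAT1 3′ ends, mostly subunits of RNase P, 4 were higher and 5 lower with siGGGGGC at 48 h, and 1 higher and 4 lower with siGGCAGU. For this and the other lists of proteins, the shares of all genes were 27.8% higher and 27.5% lower with siGGGGGC at 48 h, and 27.8% and 24.9% with siGGCAGU. The median log2 fold changes of the 11 genes were 0.0555 and -0.00159. POP5 fell with siGGGGGC (-1.11, adjusted p = 2.79e-07), RPP14 rose (0.80, adjusted p = 3.09e-06), and POP7 fell with siGGCAGU (-0.72, adjusted p = 0.000184, edgeR). Of 10 nuclear speckle proteins, 1 was higher and 5 lower with siGGGGGC at 48 h, and 0 and 5 with siGGCAGU. SRSF2, a splicing factor, was lower with both (-0.80 and -0.99, adjusted p = 1.93e-06 and 1.79e-07, edgeR), RBM25 with siGGGGGC (-0.88) and SRRM1 with siGGCAGU (-0.69). In the siNT1 libraries, where MALAT1 was 4.24-fold higher at 48 h, 3 of the 10 speckle proteins were higher and 1 was lower, beside 9.37% and 7.2% of all genes.

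Of 8 NORAD partners, 2 were higher and 0 lower with siGGGGGC at 48 h, and 0 were higher and 4 lower with siGGCAGU. With siGGGGGC against siGGCAGU, 6 were higher and 0 lower, beside 26.7% and 27.6% of all genes. NORAD itself was lower in the last comparison. PUM2 was lower with siGGCAGU (-0.56, adjusted p = 0.00268) and higher with siGGGGGC than with siGGCAGU (0.70, adjusted p = 0.000431, edgeR). Of 6 genes for OIP5-AS1 partners and for the decay of microRNAs, 3 were higher and 1 lower with siGGGGGC at 48 h, and 2 and 2 with siGGCAGU. ELAVL1, which codes for the RNA-binding protein HuR, was lower with siGGCAGU (-0.74, adjusted p = 4.05e-05) and higher with siGGGGGC at 24 h (0.55, adjusted p = 0.00266) and 48 h (0.35, adjusted p = 0.0121, edgeR). ELOB, an adaptor of ubiquitin ligases, was higher with both siRNAs (0.77 and 0.55, adjusted p = 7.75e-06 and 0.000211, edgeR). Of 7 PRC2 subunits, 1 was higher and 3 lower with siGGGGGC at 48 h, and 1 and 5 with siGGCAGU. With siGGCAGU, EZH2, a catalytic subunit, was at -1.92 (adjusted p = 1.24e-07) and RBBP7 at -0.95 (adjusted p = 5.8e-06, edgeR). The 1 that was higher with siGGCAGU was EZH1, the alternative catalytic subunit (0.86, adjusted p = 6.97e-06, edgeR). TUG1 was lower in both comparisons. Of 16 genes of the nuclear exosome, which degrades nuclear RNA, and of its adaptors, 5 were higher and 7 lower with siGGGGGC at 48 h, and 2 and 8 with siGGCAGU, beside 27.8% and 27.5%, and 27.8% and 24.9%, of all genes. Their medians were -0.00561 and -0.305. The largest changes were in PABPN1 with siGGGGGC (-1.57, adjusted p = 4.64e-07) and EXOSC9 with siGGCAGU (-1.22, adjusted p = 5.88e-08, edgeR).

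Of 30 other long noncoding RNAs listed, 20 had enough counts to be tested. With siGGGGGC, 1 was higher and 5 lower at 24 h and 6 higher and 5 lower at 48 h, and with siGGCAGU 6 were higher and 5 lower. The shares of all genes were 10.6% and 8.32%, 27.8% and 27.5%, and 27.8% and 24.9%, so that the counts at 48 h were close to those over all genes. LUCAT1, an RNA known to be induced by stress, rose with siGGGGGC by 1.27 on the log2 scale at 24 h (adjusted p = 0.00788) and by 5.47 at 48 h (adjusted p = 3.79e-12), and by 4.02 with siGGCAGU (adjusted p = 7.57e-11, edgeR). MIR17HG, the host RNA of the miR-17-92 microRNAs, fell with values of -0.74, -1.39 and -1.88 (adjusted p = 5.98e-05, 1.38e-08 and 5.77e-10, edgeR). DLEU2, the host of miR-15a and miR-16-1, was higher with siGGGGGC than with siGGCAGU (1.5, adjusted p = 5.97e-08, edgeR). Against siNT1 at 48 h, DLEU2 was lower with siGGCAGU (-1.67, adjusted p = 1.32e-08) and did not pass with siGGGGGC (-0.17, adjusted p = 0.182, edgeR). UCA1, chosen after its values were seen, was lower with siGGGGGC at 24 h (-2.07) and 48 h (-2.71) and with siGGCAGU (-2.14, adjusted p = 8.16e-05, 3.59e-06 and 1.28e-05, edgeR). With siGGGGGC at 48 h the NEAT1 value of 2.28 was smaller in size than those of LUCAT1 and UCA1.

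**Figure D4:**
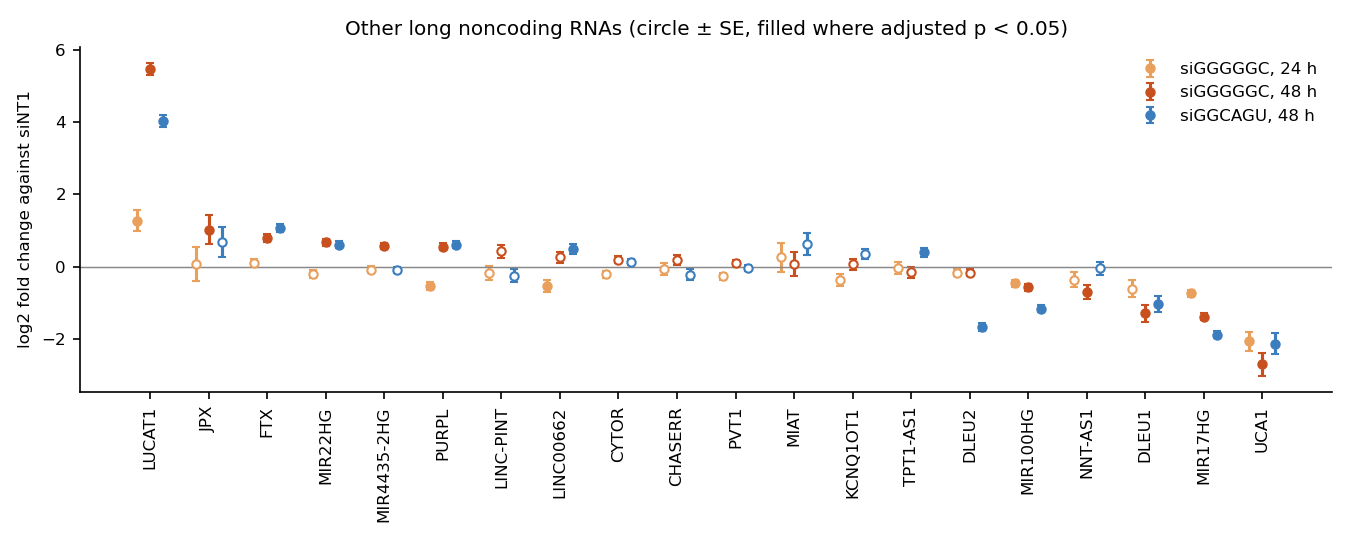
Log2 fold changes against siNT1 of the 20 other long noncoding RNAs tested, as circles with the standard error, in orange for siGGGGGC at 24 h, red for siGGGGGC at 48 h and blue for siGGCAGU at 48 h, filled where the adjusted p was below 0.05. LUCAT1 stands alone at the top at 5.47 and 4.02 at 48 h, and MIR17HG is below 0 in the 3 comparisons.

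Genes next to the 5 RNAs moved in their own ways. FRMD8, the protein-coding gene before NEAT1, was at -0.080 (adjusted p = 0.543) with siGGGGGC at 48 h and at -0.36 (adjusted p = 0.00959, edgeR) with siGGCAGU, while NEAT1 was at 2.28 and 1.18. MORC2, which starts 471 bases before TUG1 on the opposite strand, was lower with siGGGGGC at 48 h (-0.91, adjusted p = 0.000103, edgeR) as TUG1 was, and at -0.30 with siGGCAGU (adjusted p = 0.0899, edgeR). EPB41L1, beside NORAD, was higher with siGGGGGC (1.54, adjusted p = 0.000109) and with siGGCAGU (0.72, adjusted p = 0.0356, edgeR) at 48 h. CNBD2, on the other side of NORAD, had 0 to 9 counts. CHP1 and NDUFAF1, on either side of OIP5-AS1, were at 0.0015 (adjusted p = 0.99) and 0.74 (adjusted p = 3.24e-05) with siGGGGGC at 48 h. OIP5, which overlaps OIP5-AS1 on the opposite strand, was higher with siGGGGGC at 48 h (0.92, adjusted p = 0.000278) and lower with siGGCAGU (-1.62, adjusted p = 1.45e-05, edgeR), and NUSAP1, which overlaps it on the same strand, was at 0.14 (adjusted p = 0.267) and -1.29 (adjusted p = 8.14e-08, edgeR). The strand setting of the counting is not given in the sources used here, so reads of OIP5-AS1 and of these overlapping genes could be lost or exchanged. The other annotated genes inside MALAT1, NEAT1 and TUG1 that the files list, small RNA domains and antisense RNAs, had 0 counts in all 10 libraries. Reads of these inner genes also overlap the longer RNA and could be lost or counted to it, so their 0 counts do not show absence. MALAT1, NEAT1 and TUG1 could lose reads in the same way.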

How the data were processed

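The authors trimmed paired-end reads of ribosomal RNA-depleted total RNA with Trimmomatic, aligned them to hg38 with TopHat or STAR and counted exonic reads per Ensembl gene with htseq. The submitters' processing notes for these libraries name TopHat and not STAR. The strand setting is not given in the sources used here. The deposited file of each library held raw counts for 58395 genes, and the authors' tables of comparisons, with mean normalised counts, fold changes and adjusted p-values, were not used.

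Genes were filtered with filterByExpr, which kept 16905, and all 10 libraries in their 5 groups were fitted together with edgeR 4.0.16 (R 4.3.3) after TMM scaling (5 residual degrees of freedom). Its quasi-likelihood p-values were corrected for all genes tested by Benjamini-Hochberg, with a threshold of 0.05. Normalised counts are counts scaled to TMM library size, given as mean ± SD (n = 2). Log2 levels used a prior count of 2. Permuting 2 against 2 libraries cannot give a p below 0.333, so no such test was run. Fits were checked on simulated data. Alternatives used DESeq2 1.42.0 and limma 3.58.1, other scalings and filters, and left out each library in turn.

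Positions and exons are those of GENCODE release 44 on hg38. The methods name Ensembl release 78, which is older than some identifiers in the files, and 98.9% of identifiers were found in GENCODE. Named genes are the 5 RNAs, the 3 genes most like each, from each list the 2 largest changes per comparison with a mean of at least 200 normalised counts, and neighbours by annotation; the text gives a choice of them, and some are not reported here. The 5 RNAs and the lists were chosen with earlier results of these data known.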

Additional observations from a re-analysis of the deposited data

Results flagged for a closer look

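The siGGGGGC effect differed between 48 h and 24 h, by the interaction term of the edgeR fit, for 3 of the 5 RNAs. For NEAT1 it was larger at 48 h by 1.94 on the log2 scale (adjusted p = 2.18e-06), and both siGGGGGC libraries were above both siNT1 libraries at each time. For TUG1 the difference was -0.68 (adjusted p = 0.0355), and for OIP5-AS1 it was -0.37 (adjusted p = 0.0343). The last 2 missed the threshold in most fits that left out 1 library. Groups of 2 libraries are too small for a test of a single library that stands apart.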

How the results depend on the processing

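Each of the 30 effects of the 5 RNAs, over 6 comparisons, was recomputed under 20 alternatives. Of 600 recomputed effects, 533 kept their direction and side of the threshold, 25 lost the call, 25 gained it and 17 changed sign. The NEAT1 effects at 48 h, the NORAD rise with siGGCAGU, the TUG1 and OIP5-AS1 falls with siGGGGGC at 48 h and the MALAT1 rise in siNT1 libraries kept their calls in all 20. The cause of the changes below was not tested, except that leaving out a library or fitting fewer of them changes the libraries that set the spread.

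The same replicate numbers occur in all groups, but same-numbered libraries did not deviate together (correlations from -0.0894 to 0.0266), so they share only a number. With the replicate block the OIP5-AS1 interaction was -0.37 (adjusted p = 0.0552) and lost its call, and the other 29 effects kept theirs.

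Without the filter on low counts, MALAT1 passed with siGGGGGC at 24 h (0.47), with siGGGGGC at 48 h (-0.37), between both siRNAs (-0.44) and for the interaction (-0.84), NEAT1 passed at 24 h (0.36) and NORAD passed with siGGGGGC at 48 h (-0.29), so that 2 of the RNAs passed at 24 h and 5 at 48 h. OIP5-AS1 with siGGCAGU was then at -0.0057 and the NORAD interaction at -0.12, and 2425 genes were higher and 728 lower in siNT1 libraries at 48 h against 24 h. Fitting only the libraries compared, 4 of the RNAs passed with siGGGGGC at 24 h, MALAT1 (0.44), NEAT1 (0.33), TUG1 (-0.41) and NORAD (-0.20), and 2488 genes were lower.

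On library totals with no scaling factor, the median of all genes moved from -0.00391 to 0.234 for siNT1 over time, from -0.0114 to -0.169 for siGGGGGC at 48 h and from 0.0244 to -0.128 for siGGCAGU. With siGGCAGU, MALAT1 was then at -0.014 and OIP5-AS1 at -0.080. OIP5-AS1 in siNT1 libraries over time was at 0.034, and the NORAD interaction was at -0.052. TUG1 lost its call between both siRNAs (-0.53) and for the interaction (-0.76), and OIP5-AS1 for the interaction (-0.43), which left 1 of the 5. Totals gave 782 genes higher with siGGGGGC at 24 h, and 2744 higher and 179 lower in siNT1 libraries over time. The share of calls that were higher moved from 56.1% to 35.6% with siGGGGGC at 24 h, from 50.3% to 37.7% at 48 h, from 52.8% to 40.6% with siGGCAGU and from 56.6% to 93.9% for siNT1 over time. Totals without RN7SL2 and SNORD3A gave -0.73 for the TUG1 interaction, which lost its call, -0.032 for NORAD, and 547 genes lower for siNT1 over time, where the median moved to 0.116 and the share of higher calls to 80.9%. For siNT1 over time that share was 42.8% with upper-quartile factors and 78.1% without the filter, and for the interaction it moved from 46.9% to 31.3% without the filter. The OIP5-AS1 interaction lost its call with upper-quartile factors (-0.33) and in DESeq2 (-0.36), and the TUG1 interaction in limma-voom (-0.66).

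Leaving out each library in turn gave the following ranges. With siGGGGGC at 24 h, MALAT1 ranged from 0.44 to 0.50 and NEAT1 from 0.32 to 0.39, with 0 to 2 of the RNAs, 772 to 2201 genes higher and 670 to 1680 lower. MALAT1 ranged from -0.64 to 0.28 with siGGGGGC at 48 h, from -0.27 to 0.68 with siGGCAGU and from -0.71 to 0.017 between both siRNAs. With siGGCAGU, TUG1 ranged from -0.77 to -0.30 and OIP5-AS1 from -0.0022 to 0.14, and between both siRNAs TUG1 ranged from -0.68 to -0.34. For the interaction the ranges were -1.11 to -0.18 for MALAT1, -0.92 to -0.45 for TUG1, -0.056 to 0.064 for NORAD and -0.45 to -0.31 for OIP5-AS1, with 1 to 4 of the RNAs passing and 1487 to 2536 genes higher. In siNT1 libraries over time NEAT1 ranged from -0.15 to 0.37, with 338 to 2109 genes higher and 132 to 1629 lower. A lone library left in a group is assumed to vary as the other groups do.

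OIP5-AS1 held 2 GCCCCC and 1 ACTGCC in its longest transcript, against 6 and 3 in its merged exons. Of 299 recomputed list counts, levels per kilobase and likeness lists, 40 moved by more than 1.5 times, left 0 or, for levels, moved by more than 1 SD.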
